A study of Sus scrofa with 40 samples.

Results

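The sirtuins are a family of enzymes that use NAD+ as a co-substrate, and mammals have 7 of them, SIRT1 to SIRT7. All 7 were followed here in metaphase II oocytes of the pig, as 7 of the 38794 named gene rows in each of the study's count tables. They were chosen by gene symbol, but the family was taken up because of a measured value: SIRT4 had been lower in mtDNA-deficient than in mtDNA-normal single oocytes in an earlier edgeR fit of the same counts with the title number of the oocytes as a block. Values of every sirtuin in that contrast are therefore given as a description, with no test.

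Sirtuins remove acetyl or other acyl groups from lysines, or transfer ADP-ribose, and each turnover consumes NAD+. SIRT1, SIRT6 and SIRT7 are mainly nuclear, SIRT2 is mainly cytosolic, and SIRT3, SIRT4 and SIRT5 are mitochondrial enzymes encoded in the nucleus. They are known as links between the redox state of a cell, mitochondrial metabolism and gene regulation, and several have been studied in oocytes of the mouse.

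The study set mature oocytes labelled mtDNA-deficient against mature oocytes labelled mtDNA-normal, that is, deficient or normal in mitochondrial DNA. All came from commercial hybrid pigs of Large White, Duroc and Berkshire descent, and no genetic change or treatment is named for either state. There were 5 deficient and 6 normal pools of oocytes, and 14 deficient and 15 normal single oocytes. The labels used here give neither the animals, their age, nor the number of oocytes in each of these pools, and they do not explain how the state was established beyond the letters BCB with neg or pos in the oocyte titles, so the error is the spread between libraries, which may be technical. Pools were extracted with the Arcturus Picopure kit and amplified with the Nugen Ovation V2 system, whereas single oocytes were extracted in the tube and made into libraries with the Nugen SoLo kit and an InDA-C primer mix made for the pig. The column names of the single oocytes also carry a date: 6 deficient and 6 normal oocytes are dated 22 September, and 8 deficient and 9 normal oocytes 17 September. What those dates mark is not stated. Oocyte titles begin with a number (1 to 4 in deficient and 2 to 4 in normal oocytes) whose meaning is not given either.

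Counts assigned to named genes ranged between 706929 and 3067523 in single oocytes and between 14480546 and 29538982 in pools. The oocyte growth factors GDF9 and BMP15 averaged 468 ± 169 and 813 ± 335 counts per 1000000 (CPM) in single oocytes (SD, n = 29), and 1653 ± 711 and 2258 ± 1413 CPM in pools (SD, n = 11). ZP3, a protein of the zona pellucida, averaged 77.7 ± 35.7 CPM in single oocytes and 44.9 ± 35.0 CPM in pools. Of 18 cumulus and granulosa markers with a row, 14 had a count in some single oocyte, and their summed level was 21.7 to 54.3 CPM in deficient single oocytes against 7.82 to 44.0 CPM in normal ones. INHBA, an activin subunit, led them at 15.2 ± 7.66 CPM (SD, n = 29). In pools 11 of the 18 had a count in some library, with sums of 69.0 to 193 CPM in the deficient pools against 108 to 169 CPM in the normal ones. VCAN, a matrix proteoglycan, and INHBA led these sums at 66.0 ± 29.4 and 50.3 ± 12.97 CPM (SD, n = 11), whereas AMH, AMHR2, INHA, FOXL2, LHCGR, NR5A1 and HSD17B1 were at 0 in both states. A single row, LOC102158401, took 58.5 ± 6.71% of the counts in deficient and 64.2 ± 5.20% in normal single oocytes, but at most 0.0275% in any pool, which changes what 1 CPM means between the library types.

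SIRT4 stood apart from the other sirtuins by library type. It represses glutamate dehydrogenase and the pyruvate dehydrogenase complex in mitochondria. In single oocytes SIRT4 held 1316 CPM at the lowest, 3973 CPM at the median and 20341 CPM at the highest, with a mean of 5572 ± 4231 CPM (SD, n = 29). In pools it held between 0 and 2.40 CPM, with a mean of 0.969 ± 0.788 CPM (SD, n = 11). No single oocyte was near any pool. As a share of the counts of a library, SIRT4 made up 0.132 to 2.03% of a single oocyte's counts. It was the third-largest row of 38794 by mean CPM in single oocytes, and the third-largest in 16 of the 29 libraries (13 of the 15 normal ones). These are ranks of counts, not of level per length. In pools its largest count was 65, and the deficient pool A3 had 0 SIRT4 counts in 22665841, which allows up to 0.132 CPM (3 counts). This limit covers counting error only.

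Between normal libraries, SIRT4 averaged 6605 ± 3208 CPM in single oocytes (SD, n = 15) against 1.27 ± 0.878 CPM in pools (SD, n = 6), 5216-fold higher in single oocytes. Among 1472 rows with at least 50 CPM in normal single oocytes and at least 3 counts in normal pools, SIRT4 had the third-highest such ratio, and the median ratio was 0.548. A further 19 rows with at least 50 CPM had under 3 counts in normal pools and were not ranked. With LOC102158401 and the ribosomal RNA row RN18S taken out of the totals, SIRT4 averaged 21337 CPM in normal single oocytes and 1.28 CPM in normal pools, a 16717-fold difference that ranked second of 4020 rows, where the median ratio was 1.66. There 39 further rows were left unranked for the same reason. The other mitochondrial sirtuins differed far less on the same totals: SIRT3 was 18.7-fold higher in single oocytes (6.21-fold with all rows in the totals) and SIRT5 18.04-fold (6.01-fold), where the SIRT5 counts in normal pools came from 1 pool. SIRT6 was 17.5-fold higher (5.75-fold with all rows), SIRT7 18.8-fold (6.29-fold) and SIRT2 2.996-fold (1.01-fold). SIRT1 went the other way, with 102 CPM in normal single oocytes against 226 CPM in normal pools, 2.22-fold lower in single oocytes (6.64-fold lower with all rows). Kit, extraction and library type changed together and the types stand in separate tables, so they cannot be told apart, and these ratios carry no test.

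**Figure D1:**
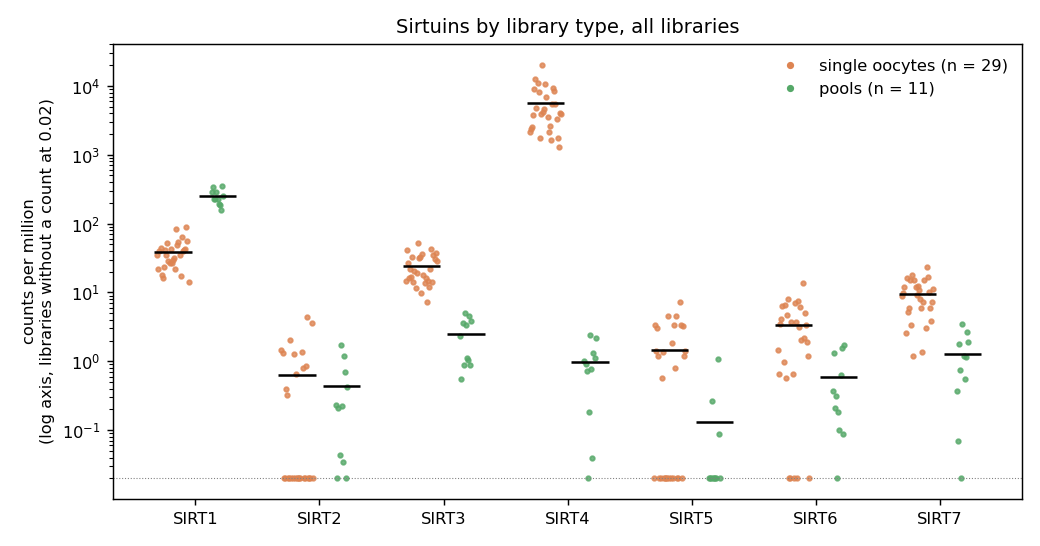
Level of each sirtuin (CPM, log axis) in 29 single oocytes (orange) and 11 pools (green); each point is a library, black lines are means, and libraries without a count are drawn at the dotted line. SIRT4 lies at 1316 CPM or more in every single oocyte and at 2.40 CPM or less in every pool, while SIRT1 is the only sirtuin with a lower mean in single oocytes than in pools.

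Around SIRT4, the RefSeq annotation of the pig (Sscrofa11.1, a later build than the one named for these counts) places the non-coding LOC102165911 over the gene, which had 0 counts in single oocytes and 8 in all pools. After SIRT4 follow PLA2G1B, a secreted phospholipase, with 0 counts in both library types, and MSI1, an RNA-binding protein, with 4.12 ± 5.32 CPM in single oocytes (SD, n = 29) and 1.28 ± 1.56 CPM in pools (SD, n = 11). The neighbours on the other side, PXN and RPLP0, were not matched to a row and were not analysed here. None of the neighbouring rows measured had a level near that of SIRT4 in single oocytes. Whether the counts used strand is not given in the sources used here, so reads of SIRT4 and of the overlapping RNA cannot be told apart, and whether the SIRT4 row counts SIRT4 mRNA alone was not tested.

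Between the states, the single-oocyte values of SIRT4 are those that led to the choice of the family. Deficient oocytes held 1316, 2563 and 20341 CPM at the lowest, median and highest, with a mean of 4466 ± 4992 CPM (SD, n = 14). Normal oocytes held 1643, 5516 and 12494 CPM, with a mean of 6605 ± 3208 CPM (SD, n = 15). The ranges overlap, but 12 of the 14 deficient oocytes lay below the normal median and 14 of the 15 normal oocytes lay above the deficient median. The highest value of all belonged to a deficient oocyte, S20; without it the deficient oocytes averaged 3244 ± 2092 CPM.

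The oocyte S20 weighed on the values of its date. Among oocytes of 22 September SIRT4 averaged 2757 ± 1473 CPM in the deficient oocytes against 5520 ± 2989 CPM in the normal ones (SD, n = 6 each). Among those of 17 September it averaged 5747 ± 6352 CPM in 8 deficient oocytes against 7329 ± 3310 CPM in 9 normal ones, and 3663 ± 2550 CPM in the 7 deficient oocytes left without S20. All 9 normal oocytes of that date lay above the deficient median. That the size differs between the dates was not tested.

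When counts were summed over oocytes with the same title number, deficient SIRT4 stood at 2266, 2400, 5736 and 4557 CPM for numbers 1 to 4, and normal SIRT4 at 6062, 9675 and 5325 CPM for numbers 2 to 4. Deficient was the lower at each number both states have. Split by date as well, number 4 of 17 September turned round, at 7588 CPM in the deficient sum and 5804 CPM in the normal sum, and S20 is in that deficient sum. Without S20 the deficient sum held 2641 CPM. In the edgeR fit over the sums, scaled by trimmed mean of M values (TMM), the log2 difference of SIRT4, deficient minus normal, was -1.18 (SE 0.32). The title numbers pair the sums, and with them as a block it was -0.93 (SE 0.15) over the 6 sums of numbers both states have, and -0.68 (SE 0.16) over sums by number and date. With each oocyte as a sample it was -0.82 (SE 0.33), and -1.25 (SE 0.29) without S20. With each oocyte as a sample and title number and date as a block it was -0.53 (SE 0.30). All settings refit the counts that led to the choice of SIRT4, so their shared sign is no support for the difference. Part of the make-up of the libraries moved with state: RN18S took 3.89 ± 0.753% of counts in deficient and 2.92 ± 0.645% in normal single oocytes, beside the shares of LOC102158401 given above. The part of that make-up in the SIRT4 values was not tested.

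**Figure D2:**
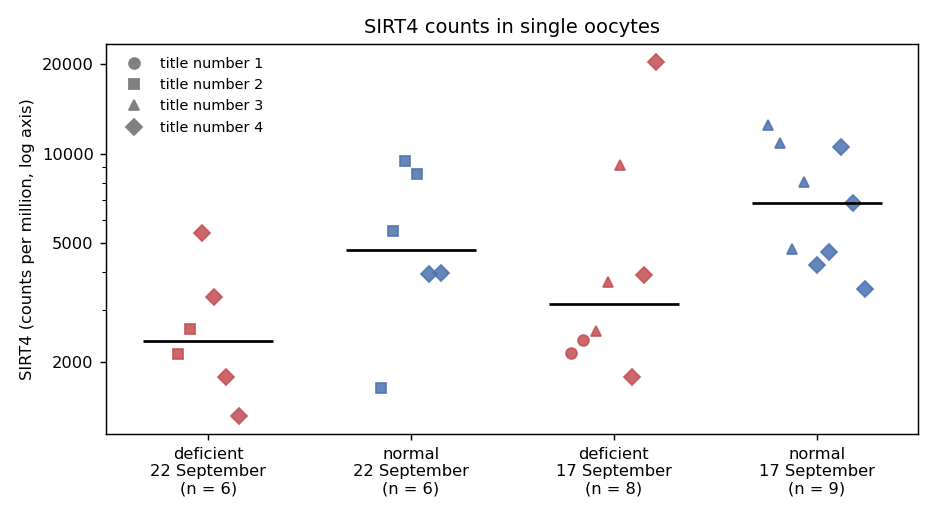
SIRT4 in each single oocyte (CPM, log axis) by state and date, with the title number as symbol; black lines are medians. Most deficient oocytes lie below the normal median, but the highest value, 20341 CPM, is a deficient oocyte of 17 September.

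SIRT4 also varied more between oocytes of 1 state than most rows did. Its coefficient of variation over the 14 deficient oocytes was 1.12, the highest of 736 rows with a mean of at least 100 CPM, whose median was 0.297. Over the 15 normal oocytes it was 0.486, rank 24 of 599 rows with a median of 0.277. Without S20 the coefficient in deficient oocytes was 0.645.

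The values of the other 6 sirtuins in single oocytes are a description too. SIRT4 was chosen from this contrast, so no ranking of the 6 against it is drawn. SIRT3, the main deacetylase of the mitochondrial matrix, had 25.6 ± 13.1 CPM in 14 deficient oocytes against 22.2 ± 10.04 CPM in 15 normal ones (SD), and a log2 difference of -0.032 (SE 0.29) in the fit, whose scaling leaves less weight to the largest rows than CPM does. SIRT1, a nuclear deacetylase of histones and transcription factors, had 43.8 ± 20.9 CPM in the deficient oocytes against 33.8 ± 15.1 CPM in the normal ones (SD), and a log2 difference of 0.18 (SE 0.32). The fit values given for these sirtuins have no block on title number. Summed by numbers 2, 3 and 4, deficient over normal CPM was 1.46, 1.22 and 1.49 for SIRT1 and 1.11, 1.03 and 1.05 for SIRT3. These ratios are without the scaling of the fit. Both genes had counts in every oocyte, and the states overlapped over most of their range. SIRT7, a nucleolar enzyme tied to ribosomal RNA transcription, was also counted in every oocyte, at 9.12 ± 5.87 CPM in the deficient oocytes against 9.94 ± 5.30 CPM in the normal ones (SD). Its log2 difference was -0.41 (SE 0.41).

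The other 3 were at the limit of detection. SIRT6, a chromatin deacetylase that takes part in DNA repair, had a count in 11 of 14 deficient and 13 of 15 normal oocytes, with a log2 difference of -0.30 (SE 0.68). SIRT5, which removes succinyl and malonyl groups from mitochondrial proteins, had a count in 8 deficient and 8 normal oocytes, with a log2 difference of 0.74 (SE 0.86). SIRT2, a tubulin deacetylase of the cytosol, had a count in 6 deficient and 6 normal oocytes, 27 counts in all, and was left out of the fit by its low count. A count of 0 in 1 oocyte allows 0.978 to 4.24 CPM, depending on its depth, so an absence of these transcripts cannot be read from the zeros.

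In pools, a set of libraries that did not enter the choice of members, SIRT3 showed the most separated values between the states. Its 5 deficient pools held 2.33 (A1), 0.552 (A2), 0.882 (A3), 1.05 (B2) and 0.880 (B4) CPM. Its 6 normal pools held 3.64 (A2), 5.04 (A3), 3.32 (A4), 1.12 (B1), 4.54 (B2) and 3.80 (B4) CPM. Deficient pools were lower except that A1 exceeded the normal pool B1, and within the pools titled A, and within those titled B, the states did not overlap. These groups are small, with 3 against 3 pools titled A and 2 against 3 titled B. SIRT6 did not overlap in the pools titled A either, with the deficient pools higher. In edgeR's quasi-likelihood test on each letter alone, 0 sirtuins had an unadjusted p under 0.05. Those fits by letter were added after the data were seen. How many of all genes separate in this way was not counted, so the separation is not read as a result about SIRT3 or SIRT6. The SIRT3 means were 1.14 ± 0.689 CPM in deficient pools and 3.58 ± 1.36 CPM in normal pools (SD, n = 5 and 6). These rest on 125 counts over the 5 deficient and 525 over the 6 normal pools. In a pool, fewer oocytes that contain a transcript and less of it in each oocyte cannot be told apart.

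SIRT3 nevertheless did not pass the test over all genes. edgeR's quasi-likelihood test gave a log2 difference of -1.57 (SE 0.56), deficient minus normal, with an unadjusted p of 0.0128 and a Benjamini-Hochberg adjusted p of 0.880. Of 13540 genes tested in pools, 0 (0%) passed an adjusted p of 0.05 with edgeR, and 0 (0%) with limma-voom, whereas DESeq2 called 28 genes (0.207%). At an unadjusted p under 0.05 edgeR counted 726 genes (5.36%), and among the 4 sirtuins tested it counted 1, SIRT3. No sirtuin was called by any of the 3 tools. The SIRT3 difference was below 0 in all 21 alternative settings, between -2.23 and -1.31, with adjusted p between 0.257 and 0.999. Deficient pools also had fewer genes detected (16574 ± 1666) than normal pools (17938 ± 1556; SD, n = 5 and 6), and less RN18S (0.297 ± 0.127% against 0.655 ± 0.428%). With the number of genes detected as a covariate, a setting added after the data were seen, the SIRT3 difference was -1.59 (SE 0.57). The other 3 tested gave -0.98 (SE 1.30) for SIRT4, 0.081 for SIRT1 and -0.015 (SE 3.12) for SIRT7. That SIRT7 error is a quotient of values near 0 and is not a usable measure of spread.

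SIRT4 in pools had a negative difference that did not pass the test. Deficient pools held 1.02 (A1), 0.898 (A2), 0 (A3), 0.0391 (B2) and 1.10 (B4) CPM, and normal pools 0.728 (A2), 0.183 (A3), 2.40 (A4), 0.779 (B1), 1.31 (B2) and 2.20 (B4) CPM. The groups overlapped, with means of 0.612 ± 0.546 CPM in the deficient pools against 1.27 ± 0.878 CPM in the normal ones (SD, n = 5 and 6). The log2 difference was -0.81 (SE 0.99), with an adjusted p of 0.932 in edgeR's quasi-likelihood test, and the values rest on 61 counts over the deficient and 185 over the normal pools. Pools of 1 state spread widely, with 0 and 1 counts in A3 and B2 beside 22 and 25 in A1 and B4 among the deficient ones. limma-voom gave -1.92 (SE 1.10) and an adjusted p of 0.882.

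SIRT1 was the one sirtuin well covered in pools, with 28986 counts over the deficient and 33224 over the normal pools. It averaged 278 ± 72.8 CPM in the deficient pools against 224 ± 43.8 CPM in the normal ones (SD, n = 5 and 6), and the groups overlapped: the lowest deficient pool, B2, held 184 CPM and the highest normal pool, A3, 285 CPM. The log2 difference was 0.44 (SE 0.27), with an adjusted p of 0.921 in edgeR's quasi-likelihood test, and 0.081 (SE 0.17) with the number of genes detected as a covariate. SIRT7 averaged 0.884 ± 1.04 CPM in the deficient pools against 1.58 ± 1.14 CPM in the normal ones (SD), with a log2 difference of -0.68 (SE 0.95) and an adjusted p of 0.939 in the same test. The SIRT7 value depended on the pools used: it was -1.64 (SE 1.03) without deficient pool B4, -0.29 (SE 1.00) without normal pool A4, -1.85 (SE 1.56) in the pools titled A alone and 0.30 (SE 1.01) in those titled B alone. SIRT2, SIRT5 and SIRT6 did not reach the minimum count of the filter. SIRT2 held 37 counts over the deficient and 76 over the normal pools, SIRT5 8 and 30, and SIRT6 52 and 85. SIRT6 had opposite orders by title letter: 0.664 CPM in the deficient pools against 0.131 CPM in the normal ones titled A, and 0.357 CPM in the deficient pools against 1.13 CPM in the normal ones titled B.

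**Figure D3:**
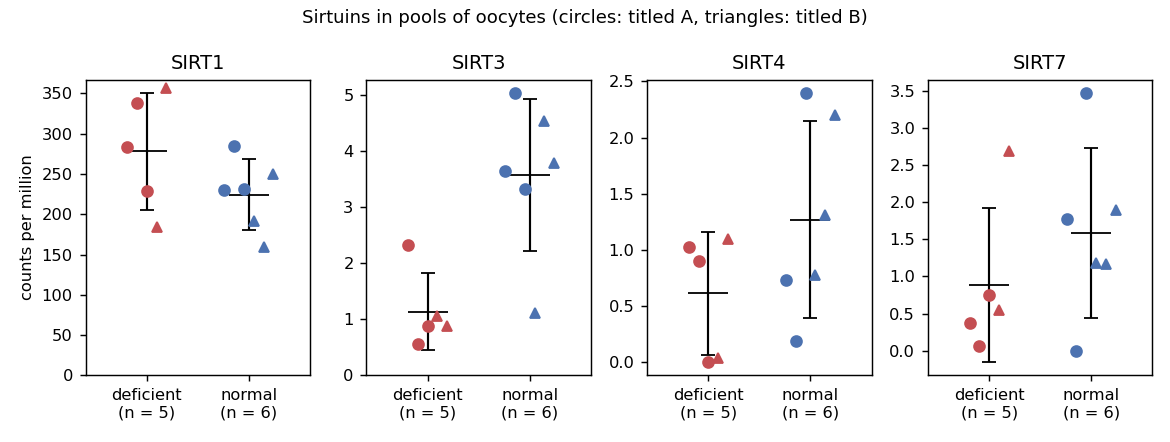
SIRT1, SIRT3, SIRT4 and SIRT7 in each pool (CPM, linear axes), with 5 deficient pools left of 6 normal pools; circles are pools titled A, triangles pools titled B, and lines with bars are mean and SD. In SIRT3 4 of the 5 deficient pools lie at 1.05 CPM or below and 5 of the 6 normal pools at 3.32 CPM or above.

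The dates of the single oocytes allowed a second comparison that did not choose the members. Counts were summed by state, title number and date into 9 sums, and 22 September was set against 17 September with state as a covariate. Of 11044 genes tested with edgeR, 43 (0.389%) passed the adjusted threshold and 1246 (11.3%) had an unadjusted p under 0.05. None of the 5 sirtuins tested was called, and 2 had an unadjusted p under 0.05, SIRT1 and SIRT4.

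SIRT1 had a higher median and mean in oocytes of 22 September, with 14.1, 45.5 and 89.7 CPM at the lowest, median and highest, against 15.97, 29.5 and 53.0 CPM in oocytes of 17 September. Its means were 48.8 ± 22.96 CPM (SD, n = 12) against 31.4 ± 10.23 CPM (SD, n = 17). The log2 difference was 0.70 (SE 0.22), with an unadjusted p of 0.00497 and an adjusted p of 0.195 in edgeR's quasi-likelihood test. All 19 alternative settings, with edgeR, DESeq2 or limma-voom, kept its sign, between 0.37 and 0.82, with adjusted p between 0.106 and 0.768. In the edgeR fit with title number as a block, SIRT4 was the only 1 of the 5 sirtuins tested with an unadjusted p under 0.05. In that fit 1166 of 11044 genes had such a p.

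SIRT4 had the opposite sign. It held 1316, 3638 and 9458 CPM at the lowest, median and highest on 22 September, against 1779, 4684 and 20341 CPM on 17 September, with means of 4138 ± 2670 CPM (SD, n = 12) against 6585 ± 4878 CPM (SD, n = 17). The dates overlapped over most of their range. Its log2 difference was -0.90 (SE 0.28), with an unadjusted p of 0.00469 and an adjusted p of 0.191 in edgeR's quasi-likelihood test. The call turned with the fit. With title number as a block the difference was -1.14 (SE 0.22) with an edgeR adjusted p of 0.00784, and with no filter on low counts it was -0.93 (SE 0.12) with an edgeR adjusted p of 3.88e-12, whereas DESeq2 gave -0.89 (SE 0.44) and an adjusted p of 0.368.

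Oocyte S20 decided much of that value. Only title number 4 occurs on both dates, so the blocked value rests on 4 of the 9 sums: 2929 CPM on 22 September against 7588 CPM on 17 September in deficient oocytes, and 3969 CPM against 5804 CPM in normal ones. S20 is 1 of the 3 oocytes behind the 7588 CPM. Without it the blocked difference was -0.28 (SE 0.17) with an edgeR adjusted p of 0.645, the unblocked one -0.62 (SE 0.29) with an edgeR adjusted p of 0.462, and the one with no filter -0.66 (SE 0.12) with an edgeR adjusted p of 1.08e-05. Over all 19 alternatives the difference stayed below 0, with adjusted p between 3.88e-12 and 0.645.

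SIRT3, SIRT6 and SIRT7 had log2 differences of -0.15 (SE 0.26), 0.25 (SE 0.66) and -0.37 (SE 0.38) between the dates, with adjusted p of 0.885, 0.932 and 0.781 in the same test. For SIRT3 and SIRT6 the sign depended on the setting. SIRT2 and SIRT5 were not tested. The RN18S share moved with date too, at 3.97 ± 0.697% on 22 September (SD, n = 12) and 2.97 ± 0.688% on 17 September (SD, n = 17), and its part in the SIRT1 and SIRT4 values was not tested.

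**Figure D4:**
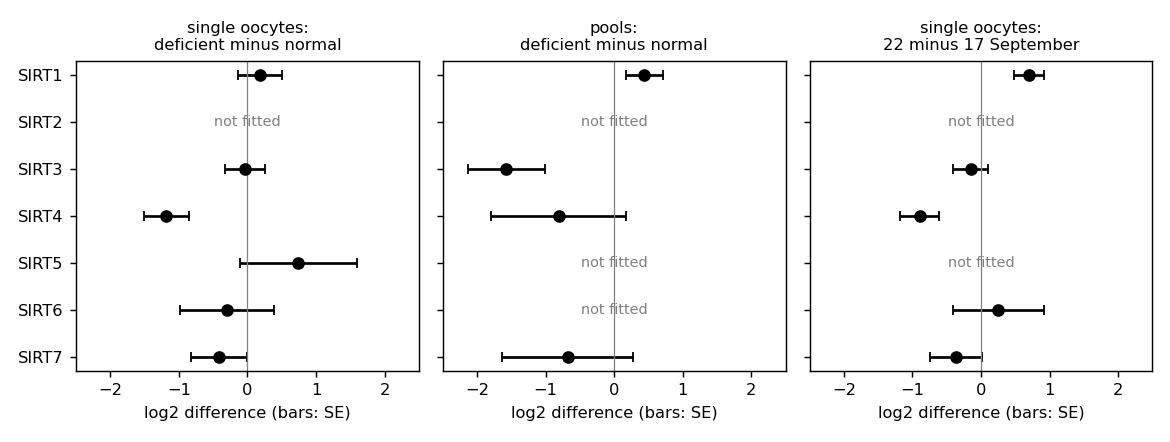
Log2 differences with standard errors from edgeR for the 7 sirtuins between deficient and normal single oocytes (a description), between deficient and normal pools, and between single oocytes of 22 and 17 September. SIRT4 lies at -1.18 (SE 0.32) in the contrast that chose it, at -0.81 (SE 0.99) in pools and at -0.90 (SE 0.28) between the dates. The last is no contrast of state, so the shared sign is no support for a state difference. SIRT3 lies at -1.57 in pools and near 0 in single oocytes. Genes marked as not fitted were under the count filter, and no fit shown has a block on title number.

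Across the 29 single oocytes SIRT4 and SIRT1 tended to opposite orders, with a Spearman rho of -0.49 between them (-0.64 in the 14 deficient and -0.11 in the 15 normal oocytes). SIRT4 had a rho of -0.55 with the RN18S share of the library (-0.53 in deficient and -0.30 in normal oocytes). SIRT1 had one of 0.60 (0.81 in deficient and 0.325 in normal oocytes). SIRT4 had a rho of 0.46 with the share of LOC102158401 and SIRT1 one of -0.46. These are descriptions over libraries that share a total and differ in state and date. SIRT3, the other mitochondrial sirtuin with counts in every oocyte, had a rho of 0.11 with SIRT4 (0.31 in deficient and -0.30 in normal oocytes).

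**Figure D5:**
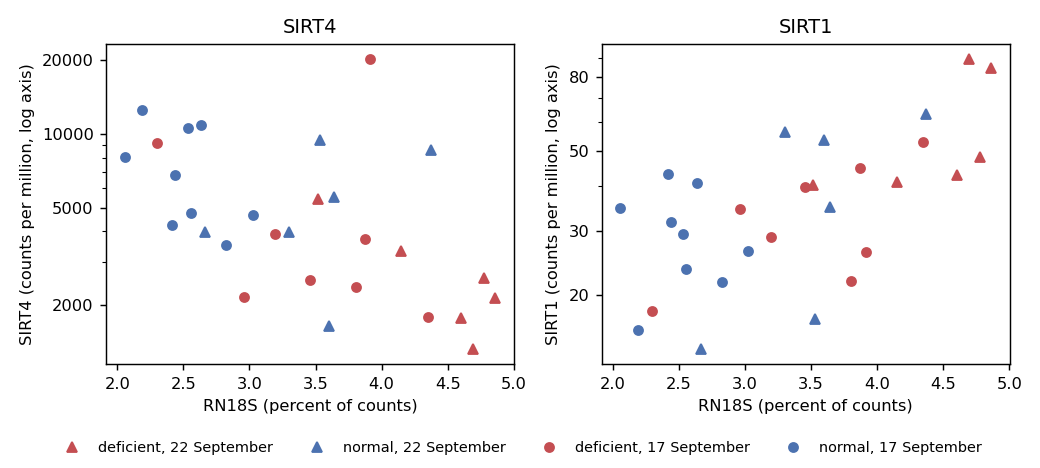
SIRT4 and SIRT1 (CPM, log axes) against the RN18S share of counts in 29 single oocytes; colour gives state and symbol gives date. SIRT4 is lower and SIRT1 higher at larger shares (rho -0.55 and 0.60), and the 4 oocytes with the largest shares, between 4.60 and 4.86%, are deficient ones of 22 September.

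The gene whose order over the 29 single oocytes was most like that of SIRT4 was TTI2, a subunit of the complex that stabilises kinases of the PIKK family, with a rho of 0.79 among 5802 genes compared. Within states it was 0.25 in the 14 deficient and 0.74 in the 15 normal oocytes, so the value over all 29 also takes in the difference in mean between the states. In deficient oocytes alone TTI2 was the least similar of the 5 genes named. TTI2 held 256 ± 107 CPM in the deficient oocytes against 356 ± 121 CPM in the normal ones (SD). Next came LOC100621235 (rho 0.68), LOC100622870 (rho 0.63), LOC106504392 (rho 0.53) and MKKS, a chaperonin-like protein (rho 0.52). LOC100621235 kept its likeness within both states, at 0.69 in deficient and 0.65 in normal oocytes. In the 11 pools, where SIRT4 had at most 65 counts, the most similar of 6398 genes were LOC100626266 (rho 0.90), ITGA2, an integrin subunit (rho 0.89), GOLGA1, a Golgi protein (rho 0.86), LOC100512039 (rho 0.85) and LOC106505804 (rho 0.85).

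Genes that supply or compete for NAD+ and the known targets of sirtuins gave no called change in pools with edgeR, DESeq2 or limma-voom. Over all 13540 genes edgeR and limma-voom called 0 (0%) and DESeq2 called 28 (0.207%). That 0 list members were called is therefore no result about these lists. Of 8 tested genes of NAD+ synthesis, salvage and phosphorylation, 0 were called, 4 had a log2 difference below 0 and the median was -0.09, beside a median of -0.0019 over all 13540 genes. NMNAT3, which makes NAD+ in mitochondria, held 44.6 ± 5.997 CPM in the deficient pools against 78.0 ± 15.1 CPM in the normal ones (SD, n = 5 and 6). Every deficient pool (36.0 to 51.8 CPM) lay below every normal pool (59.2 to 104 CPM), and the log2 difference was -0.64 (SE 0.19), with an unadjusted p of 0.00356 and an adjusted p of 0.690 in edgeR's quasi-likelihood test. In single oocytes NMNAT3 did not show that order, with 29.9 ± 15.7 CPM in 14 deficient oocytes against 22.1 ± 10.22 CPM in 15 normal ones (SD). NMNAT3 is named because it had the smallest p of its list. In the same test 726 of the 13540 genes (5.36%) had an unadjusted p under 0.05. How many of all 13540 genes separate the pools as fully was not counted, so the separation is not read as a result about NMNAT3. NADK2, the mitochondrial NAD+ kinase, had a log2 difference of 0.68 (SE 0.48) in pools.

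Of 5 other NAD+ consuming enzymes tested in pools, 0 were called, where edgeR called 0 of all 13540 genes. Their median log2 difference was -0.05. CD38, an NAD+ glycohydrolase, held 0 to 0.698 CPM in the deficient pools against 0.0364 to 7.43 CPM in the normal ones, a range that overlaps. TNKS2, a tankyrase, had a log2 difference of 0.32 (SE 0.22). Of 11 tested mitochondrial substrates and partners, 0 were called and the median was 0.07. Among them IDH2, the mitochondrial isocitrate dehydrogenase that SIRT3 activates by deacetylation, held 3.69 ± 3.07 CPM in the deficient pools against 12.1 ± 8.40 CPM in the normal ones (SD, n = 5 and 6). The groups overlapped, with 7.70 CPM in the highest deficient and 2.98 CPM in the lowest normal pool. The IDH2 log2 difference was -1.56 (SE 0.55), with an unadjusted p of 0.0120 and an adjusted p of 0.874 in edgeR's quasi-likelihood test. A relation between the IDH2 and SIRT3 transcripts was not tested. In single oocytes IDH2 held 33.8 ± 15.9 CPM in the deficient oocytes against 24.1 ± 9.49 CPM in the normal ones (SD), the other order. MCCC1, a carboxylase subunit of leucine breakdown, had a log2 difference of 0.33 (SE 0.24) in pools.

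Of 11 tested nuclear and cytosolic substrates, 0 were called in pools, where edgeR called 0 of all 13540 genes. Their median log2 difference was -0.13. EP300, a histone acetyltransferase, had a difference of 0.38 (SE 0.16) with an unadjusted p of 0.0362 and an edgeR adjusted p of 0.903, and ACSS2, the cytosolic acetyl-CoA synthetase, one of -0.81 (SE 0.41). Of 4 tested zinc-dependent histone deacetylases, which share the reaction but do not use NAD+, 0 were called and the median was -0.16, with HDAC6 at -1.24 (SE 1.03) and HDAC9 at -0.22 (SE 0.42). Between the dates 0 members of the 5 lists were called in the edgeR fit over sums, which called 43 (0.389%) of all 11044 genes. The list medians lay between -0.23 and 0.18 on the log2 scale, beside -0.011 over all genes. IDH2 had the smallest p of the mitochondrial list there too, with a log2 difference of -0.82 (SE 0.22), 22 against 17 September, an unadjusted p of 0.00151 and an edgeR adjusted p of 0.124. IDH2 was called lower by DESeq2, which called 113 genes higher and 76 lower of 11044. With each oocyte as a sample edgeR called IDH2 lower and EP300 higher, beside 171 higher and 154 lower of 6966 genes. That fit takes oocytes of the same title number and date as independent samples. No other list member was called in any alternative, and whether the lists differ from all genes was not tested.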

How the data were processed

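Both tables hold whole-number counts of reads per gene as the authors deposited them, 1 table for pools and 1 for single oocytes. Reads were 100 bp pairs from an Illumina HiSeq 3000, per the labels, and the submitters' processing notes name FastQC, Trim Galore, TopHat2 2.0.14, edgeR and the pig build Sscrofa10.2; the sources used here do not name the counting tool, its strand setting or the annotation. A row without a gene name held 1.05 to 4.75% of counts in pools and 0.648 to 8.15% in single oocytes and entered neither totals nor tests. State came from the labels and date from the column names, and 0 sample columns stayed unmapped. The design text gives 5 per group, but 6 pools are labelled normal, and all were used. The closest pair of replicates still differed by more than sampling noise (smallest chi-square per degree of freedom 35.0 in pools and 4.09 in single oocytes).

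CPM values (counts per 1000000) are relative to the sum over all named rows. All genes were fitted with edgeR 4.0.16 (R 4.3.3; filterByExpr, TMM scaling, quasi-likelihood test, Benjamini-Hochberg adjustment, threshold 0.05), with DESeq2 1.42.0 and limma 3.58.1 (voom) as alternatives beside other scalings, no filter, covariates and left-out libraries. Standard errors are the log2 difference divided by the square root of the F statistic, a quotient that is unstable where both are near 0. Single oocytes were summed by state and title number (4 deficient and 3 normal sums), and also by date for the comparison of dates. Same-numbered sums of the 2 states deviated together (correlations 0.143 to 0.220 by number, 0.149 to 0.276 by number and date), so the numbers pair them. Likeness to SIRT4 is Spearman's rho of log2 CPM (prior count 2) over genes with a mean of at least 10 CPM. The script was tested on simulated data. The members, the gene lists and the tests were chosen with earlier results of these data known. The genes named are the 7 sirtuins, the 5 most like SIRT4 in each library type, its annotated neighbours, and from each list the genes called or, with none called, the 2 of smallest p in pools; IDH2 between the dates was named after its value was seen. Gene names and neighbours were read from RefSeq (Sscrofa11.1), and no coordinate is given because the builds differ.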

Additional observations from a re-analysis of the deposited data

Results flagged for a closer look

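Of 42 groups of 4 to 10 libraries examined for a sirtuin value far from the rest by Dixon's criterion at 95%, 10 were picked out. The criterion's rate of about 1 group in 20 assumes normally distributed values. Many of these groups hold few counts and many zeros, so the 10 cannot be set against that rate. Single oocyte S20 (deficient, 17 September) held 20341 CPM of SIRT4, against 9155 CPM in the next deficient oocyte of that date. Deficient pool A1 held 2.33 CPM of SIRT3, against 1.05 CPM in the next deficient pool, and is the only deficient pool above a normal one. Deficient pool B4 held 2.68 CPM of SIRT7, against 0.750 CPM in the next.

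The other 7 are single high values of sirtuins near the limit of detection. SIRT2 stood at 4.38 CPM in oocyte S22 (deficient, 22 September), at 3.595 CPM in S8 (normal, 22 September), at 2.04 CPM in S7 (normal, 17 September) and at 1.21 CPM in deficient pool B2. SIRT5 stood at 4.61 CPM in S2 (normal, 17 September), at 4.57 CPM in S12 (normal, 22 September) and at 1.09 CPM in normal pool B2, the only normal pool with a SIRT5 count.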

How the results depend on the processing

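In pools the count of called sirtuins was 0 under all 21 alternatives, and SIRT1, SIRT3 and SIRT4 kept their sign in each; leaving out 1 pool at a time moved SIRT3 between -1.98 and -1.31. SIRT7 reversed to 0.30 in the pools titled B alone, a choice made after seeing the data. Same-numbered pools did not deviate together in every pair (correlations -0.10, 0.13, 0.48 and 0.08, with 3 of 4 pairs correlating best with their own number); over the 8 numbered pools SIRT3 was -2.19 with a replicate block and -2.23 without one, SIRT4 -1.85 and -0.79, SIRT1 0.41 and 0.41, and SIRT7 -0.022 and -0.039, and the block changed no sirtuin's call. With 1 pool left out SIRT1 lay between 0.26 and 0.64, SIRT4 between -1.11 and -0.49 and SIRT7 between -1.64 and -0.29.

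In single oocytes the state difference of SIRT4, a description, lay between -1.53 and -0.53 over 22 settings, furthest from -1.18 at -0.53 with each oocyte as a sample and a replicate block on title number and date; leaving out 1 sum at a time gave -1.53 to -0.66. Between the dates, 1 sirtuin, SIRT4, was called with no filter on low counts (with S20 and, 1 again, without it) and 1 with the replicate block on title number; SIRT4 was then -0.93, -0.66 and -1.14, and -1.08 to -0.63 with 1 sum left out. SIRT3 reversed to 0.25 with the block, to 0.60 with the block and without S20, and to 0.028 without the normal sum of number 2. SIRT6 reversed to -0.036 in limma-voom, to -0.87 with the block (-1.09 without S20), and to -0.019 and -0.35 without the deficient or the normal sum of number 2. Over all genes the dates gave 26 higher and 17 lower calls in edgeR, and 56 and 65 with the block, 131 and 106 with no filter, 113 and 76 in DESeq2, 43 and 24 in limma-voom, and 171 and 154 with each oocyte as a sample. Leaving out S20 was chosen after seeing the data. The cause of these changes was not tested. SIRT2, SIRT5 and SIRT6 rest on few counts throughout, as do SIRT4 and SIRT7 in pools.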
